A study of Homo sapiens with 2 samples.

Results

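SRC, YES1, FYN, LYN, LCK, CSK, ABL1, ABL2 and PTK2 encode the SRC family kinases and the cytoplasmic tyrosine kinases that work with them. The 9 genes were chosen by symbol from a table of 40205 gene symbols, with earlier results of these data known. All 9 were in the table, and 8 were above 0 in both libraries. The table comes from RKO cells, an established human colorectal cancer line, which were collected on day 2 after transfection. The study made 1 library after transfection of a negative control siRNA, called the control library here, and 1 after transfection of an siRNA directed at hnRNPK, called the knockdown library. Although the genotype label of the latter reads hnRNPK-/-, its title and protocol speak of siRNA, and the group is named accordingly. With 1 library per group, differences have no replicate check, and conditions could not be tested against each other.

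SRC family kinases sit at the inner face of the plasma membrane and pass signals from integrins and growth factor receptors to the cytoskeleton and the nucleus. CSK phosphorylates a tyrosine in their C-terminal tail, which folds them into an inactive form. PTK2, also known as focal adhesion kinase or FAK, binds SRC once it has phosphorylated itself at sites of cell adhesion, while the related kinases ABL1 and ABL2 control actin. SRC is known to phosphorylate hnRNPK, a protein that binds C-rich RNA and single-stranded DNA, and hnRNPK in turn can bind and activate SRC. The comparison asks how the transcripts of these kinases differ when their partner hnRNPK is depleted.

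Values are FPKM, fragment numbers set against transcript length and library size, so levels of different genes can be compared per length. Read totals, taken as the smallest that explain the deposited values, were 25729856 for the control library and 28550823 for the knockdown library. The siRNA target, HNRNPK, went from 338 to 61.5 FPKM, which is 18.2% of the control level. A mean FPKM of 1 or more was reached by 11454 genes, whose median log2((FPKM + 1) ratio) was −0.15, so a gene with equal FPKM in both libraries lies above the middle of all genes. Of 10 epithelial markers KRT18, KRT8 and EPCAM had a mean FPKM of at least 1, KRT19, CDH1, CLDN4 and ELF3 were listed at 0, and CLDN3, CLDN7 and ESRP1 were at 0.110 FPKM or less. The 10 summed to 88.4 FPKM in the control library and 109.1 FPKM in the knockdown library. In the same order KRT18 was at 62.6 and 74.8 FPKM and EPCAM at 19.0 and 29.1 FPKM. KRT8 went the other way, at 6.63 and 5.03 FPKM. Of 9 intestinal markers only CDX2 had a mean FPKM of at least 1. None of 21 lymphocyte and myeloid markers reached a mean FPKM of 1, and their FPKM summed to 0.437 in the control library and 0.195 in the knockdown library. In these bulk samples fewer cells of a type and less RNA per cell cannot be told apart.

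FYN and ABL2 had the lowest and the highest ratio of the detected kinases. FYN was lower in the knockdown library and ABL2 higher, while the other 6 detected kinases had FPKM ratios between 0.872 and 1.07. Counted as log2((FPKM + 1) ratio), 1 of the 8 detected kinases, FYN, was at least 1.5-fold lower, where 14.7% of the 11454 genes were. None was at least 1.5-fold higher, where 3.67% of all genes were. None was past 2-fold in either direction, against 3.55% of all genes lower and 0.777% higher. The median log2 ratio of the 8 detected kinases was −0.07. That of all genes, −0.15, was exceeded by 6 of the 8 and not by FYN and SRC.

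**Figure D1:**
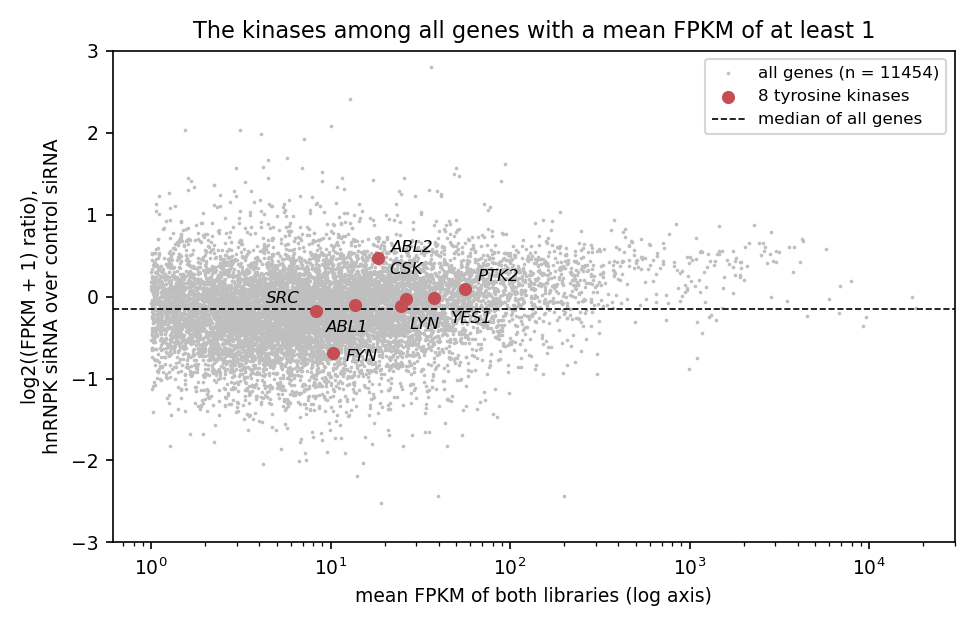
Log2((FPKM + 1) ratio) of the knockdown over the control library against mean FPKM on a log axis, for the 11454 genes whose mean FPKM is 1 or more (grey) and the 8 detected kinases (red); the dashed line is the median of all genes, −0.15. FYN at −0.69 and ABL2 at 0.47 lie apart from the other 6 kinases, which lie between −0.18 and 0.09.

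SRC, the first-described member of the family, was at 8.81 FPKM in the control library from 932 reads and at 7.68 FPKM in the knockdown library from 902 reads. The ratio was 0.872, with an exact 95% counting interval of 0.795 to 0.957. Such intervals reflect counting error alone, not the variation among cultures or libraries. Near the middle of all genes, SRC had 46.8% of them at a lower log2 ratio, and among 2665 genes with a mean FPKM within 1.5-fold of its own, 52.6% were lower. The FPKM ratio was 0.965 when centred on the median of all genes, 0.986 by TMM factors and 0.809 with equal FPKM sums, and with 1 FPKM added SRC crossed to the higher side by TMM factors (log2 ratio 0.0017).

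YES1, a close and broadly expressed relative of SRC, was the most abundant of the SRC family here. It was at 37.9 FPKM from 4573 reads in the control library and at 37.5 FPKM from 5015 reads in the knockdown library. These levels lay within counting error of each other, at a ratio of 0.988 (0.949 to 1.03). In both libraries YES1 was above 84.7% of genes or more. Its FPKM was more than 4 times that of SRC, as the SRC to YES1 ratio was 0.232 in the control library and 0.205 in the knockdown library.

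LYN, known for its part in B cell receptor signalling and also made by many epithelial cells, was at 25.8 FPKM from 2758 reads in the control library. In the knockdown library it was at 23.7 FPKM from 2817 reads. The ratio was 0.920 (0.873 to 0.970), and 53.2% of all genes lay lower. Centred on the median of all genes, the LYN ratio was 1.02, so its direction depended on scaling. LCK, the SRC family kinase of T lymphocytes, was listed at 0 in both libraries. FGR, BLK and SRMS, also of the family and its FRK branch, were listed at 0 in both libraries too. FRK rested on 6 and 1 reads, and PTK6, an epithelial kinase also called BRK, was at 0.368 and 0.235 FPKM from 24 and 17 reads.

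FYN, which acts in T cells, neurons and at cell adhesions, was at 12.9 FPKM from 1205 reads in the control library and at 7.65 FPKM from 792 reads in the knockdown library. It was 1.69-fold lower (1.54 to 1.85), the lowest ratio among the 8 detected kinases. Among all genes 10.5% had a lower log2 ratio, and among 2566 genes of like level 11.8% did. FYN thus lay toward the lower side of all genes but not at their edge. By FPKM alone the ratio was 0.655 once centred, 0.670 by TMM factors and 0.549 by equal FPKM sums. On the FPKM + 1 scale FYN was past 1.5-fold as deposited and with equal FPKM sums but not once centred or scaled by TMM factors.

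The FYN gene has several annotated starts, and the deposited values do not tell which were in use. hnRNPK binds the C-rich CT element of the MYC promoter, so windows around annotated starts, from 250 bases before to 50 after, were searched for the words CCCTCCC and TCCCT. Matches on both strands were counted, and matches of the words may overlap. The windows come from RefSeq on GRCh38.p14, a later build than that of the deposited values, and were joined by symbol alone. Windows were matched for 6 of the 9 genes, LCK, ABL2, FYN, ABL1, CSK and YES1, with 10 windows in all. The word CCCTCCC was in 4 of the 10 and in 26.6% of the 35116 windows of all genes. TCCCT was in 6 of the 10, against 64.5% of all windows. The windows at the pair of neighbouring upstream starts of FYN, on the minus strand of chromosome 6, are shown because FYN had the lowest ratio. Capitals mark matches of either word on either strand.
FYN, first window, chr6:111873403-111873702: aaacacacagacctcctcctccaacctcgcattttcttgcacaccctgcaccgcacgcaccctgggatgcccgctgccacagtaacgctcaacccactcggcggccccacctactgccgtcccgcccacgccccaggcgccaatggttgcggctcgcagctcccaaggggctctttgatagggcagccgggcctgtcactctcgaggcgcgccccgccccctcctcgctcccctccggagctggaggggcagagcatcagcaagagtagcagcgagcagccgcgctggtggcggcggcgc
FYN, second window, chr6:111873022-111873321: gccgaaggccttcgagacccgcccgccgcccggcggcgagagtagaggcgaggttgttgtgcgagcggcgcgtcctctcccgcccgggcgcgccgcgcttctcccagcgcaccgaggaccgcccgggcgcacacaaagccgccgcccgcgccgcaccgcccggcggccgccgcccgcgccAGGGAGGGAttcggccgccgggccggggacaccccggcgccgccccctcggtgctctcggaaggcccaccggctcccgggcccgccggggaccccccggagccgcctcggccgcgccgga

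The first FYN window held neither word, and the second held 1 match of CCCTCCC and 2 of TCCCT, all within a single run on the opposite strand. GC made up 69.0% of the first window and 82.3% of the second, against a median of 58.7% over all windows. FYN's remaining windows lay further downstream, with 1 TCCCT match in the last and none in the other. Both windows of LCK, the gene listed at 0, held CCCTCCC. Binding of hnRNPK was not measured, and whether the words bear on the transcript levels was not tested.

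Within the SRC family the shares of the summed FPKM differed most between the libraries for FYN and YES1. The sum over SRC, YES1, FYN, LYN and LCK was 85.4 FPKM in the control library and 76.5 FPKM in the knockdown library. FYN made up 15.1% of it in the control library and 9.99% in the knockdown library, while YES1 made up 44.4% and 49.0%. LYN held 30.2% and 31.0%, and SRC 10.3% and 10.03%. These shares are set within a library, so they do not depend on how the libraries were scaled. Relative to YES1, FYN was 1.67-fold lower in the knockdown library (1.51 to 1.84), and relative to SRC it was at a ratio of 0.679 (0.596 to 0.774).

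**Figure D2:**
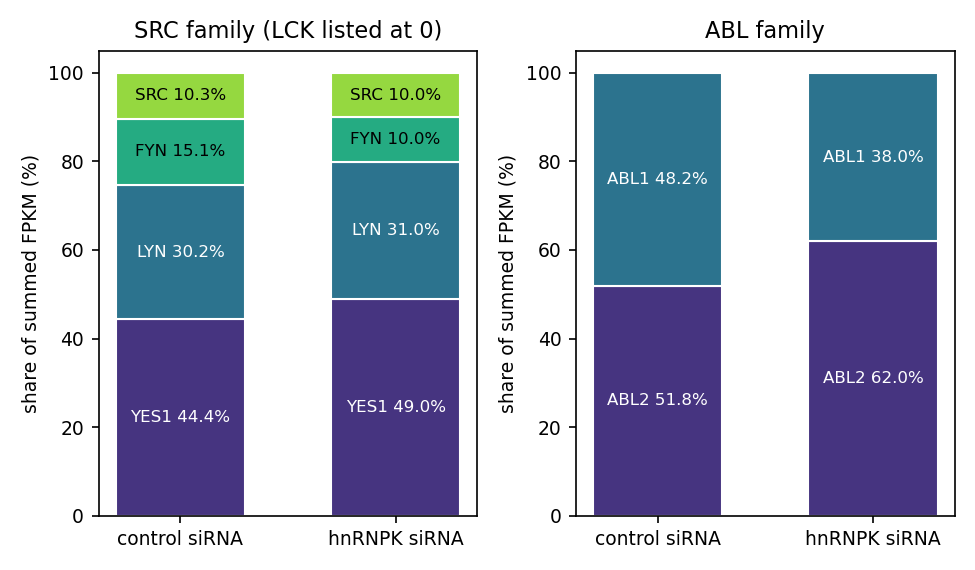
Share of the summed FPKM, in percent, held by each SRC family gene (left) and each ABL gene (right) in the control and knockdown libraries, 1 library a bar. The FYN segment goes from 15.1% to 9.99% and the ABL2 segment from 51.8% to 62.0%.

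CSK, which holds the SRC family inactive, was at 26.7 FPKM from 941 reads in the control library and at 26.0 FPKM from 1018 reads in the knockdown library. The ratio of 0.975 (0.891 to 1.07) lay within counting error of 1. Its recovered length was 1370 bases. As the smallest numbers that fit were used, the true reads and length may be a common multiple, and the interval would then be narrower. The summed FPKM of the SRC family was 3.20 times that of CSK in the control library and 2.94 times in the knockdown library.

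ABL1 and ABL2, 2 related kinases with actin-binding tails, differed from each other. ABL1 was at 14.2 FPKM from 2519 reads in the control library and at 13.2 FPKM from 2601 reads in the knockdown library, a ratio of 0.931 (0.881 to 0.983). ABL2 was at 15.3 FPKM from 4817 reads in the control library and at 21.6 FPKM from 7539 reads in the knockdown library. It was 1.41-fold higher (1.36 to 1.46), the highest ratio among the 8 detected kinases. Of all genes 93.7% had a lower log2 ratio than ABL2, and of 2123 genes of like level 95.01% did. For ABL1 54.9% of genes were lower, and its ratio, too, turned with scaling, to 1.03 when centred.

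The balance of the ABL genes inside each library, which no scaling affects, differed between the libraries. ABL2 was at 1.08 times the FPKM of ABL1 in the control library and at 1.63 times in the knockdown library. The ABL2 to ABL1 ratio was thus 1.52-fold higher in the knockdown library (1.42 to 1.62). ABL2 made up 51.8% of the summed ABL FPKM in the control library and 62.0% in the knockdown library. The sum itself was 29.5 and 34.8 FPKM. For ABL2 alone, the FPKM ratio was 1.56 once centred, 1.60 by TMM factors and 1.31 by equal FPKM sums, above 1 under each. On the FPKM + 1 scale it passed 1.5-fold when centred or scaled by TMM factors, and not as deposited.

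The start windows of ABL1, on the plus strand of chromosome 9, and of ABL2, on the minus strand of chromosome 1, are set side by side because the ABL2 to ABL1 ratio differed between the libraries. Each gene had 1 window in the RefSeq table on GRCh38.p14, and capitals mark the same words as above. The deposited values do not tell whether these starts or others were in use.
ABL1, chr9:130835004-130835303: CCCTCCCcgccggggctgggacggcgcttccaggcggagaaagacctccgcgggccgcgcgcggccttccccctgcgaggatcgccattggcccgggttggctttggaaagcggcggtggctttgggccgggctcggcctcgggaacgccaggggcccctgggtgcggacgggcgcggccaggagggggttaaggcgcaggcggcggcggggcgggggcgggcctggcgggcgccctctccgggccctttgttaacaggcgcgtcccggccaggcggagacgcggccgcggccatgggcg
ABL2, chr1:179143027-179143326: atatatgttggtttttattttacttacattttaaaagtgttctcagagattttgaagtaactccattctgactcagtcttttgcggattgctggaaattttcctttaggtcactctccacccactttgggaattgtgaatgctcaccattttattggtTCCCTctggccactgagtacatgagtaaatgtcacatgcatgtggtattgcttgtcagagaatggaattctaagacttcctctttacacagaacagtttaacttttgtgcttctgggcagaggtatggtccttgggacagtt

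The ABL1 window was 78.3% GC and began with 1 match of CCCTCCC. The ABL2 window was 39.0% GC and held 1 match of TCCCT. The YES1 window held 2 matches of TCCCT and the CSK window neither word.

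PTK2 was the most abundant of the 9, at 54.6 FPKM from 6614 reads in the control library and at 58.2 FPKM from 7819 reads in the knockdown library. The ratio was 1.07 (1.03 to 1.10), and 73.0% of all genes had a lower log2 ratio. Among 962 genes of like level 58.8% were lower, closer to the middle than among all genes. The direction was not held under every scaling, as the FPKM ratio was 0.988 with equal FPKM sums. PTK2B, the relative of PTK2 also known as PYK2, was at 0.453 and 0.141 FPKM from 55 and 19 reads.

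**Figure D3:**
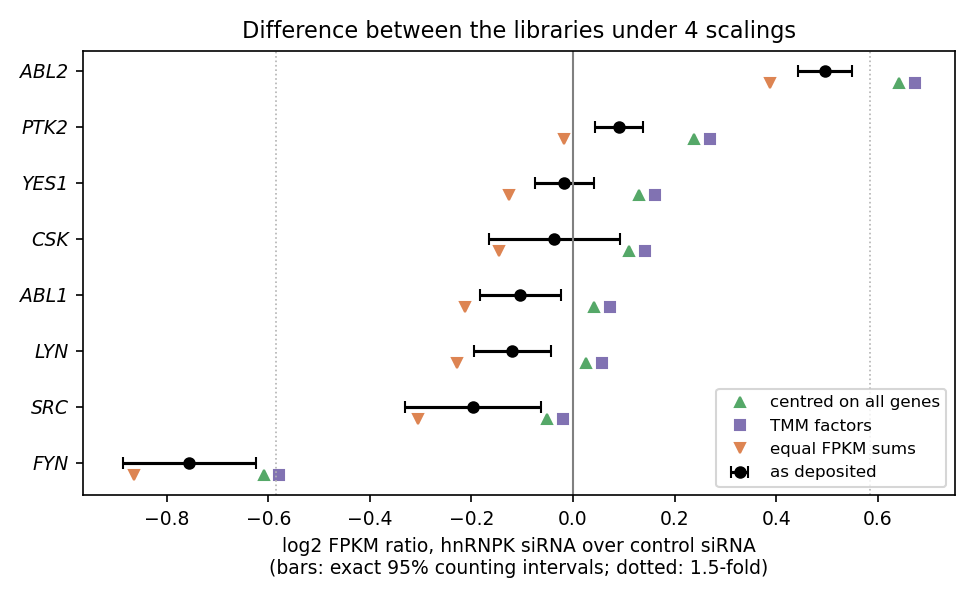
Log2 FPKM ratio (no pseudocount) of the knockdown over the control library for the 8 detected kinases, as deposited (black, with exact 95% counting intervals) and under 3 other scalings; dotted lines mark 1.5-fold. FYN lies below 0 and ABL2 above 0 under all 4 scalings, and LYN, ABL1, CSK, YES1 and PTK2 cross 0 between scalings.

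The order of levels was PTK2, YES1, CSK, LYN, ABL2, ABL1, FYN and SRC in the control library. In the knockdown library it was the same but for FYN and SRC, which came last in the reverse order. In the control library the counting interval of the ratio between neighbours included 1 for CSK and LYN alone (1.04, 0.961 to 1.12). In the knockdown library it included 1 for SRC and FYN alone, where SRC was at 1.005 times FYN (0.912 to 1.11). FYN was 1.47 times SRC in the control library (1.34 to 1.60), so the distance between them in the control library was not seen in the knockdown library. The distance from LYN to ABL2 narrowed from 1.68 times (1.61 to 1.76) to 1.10 times (1.05 to 1.15). The sum over all 9 genes was 196.3 FPKM in the control library and 195.6 FPKM in the knockdown library.

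**Figure D4:**
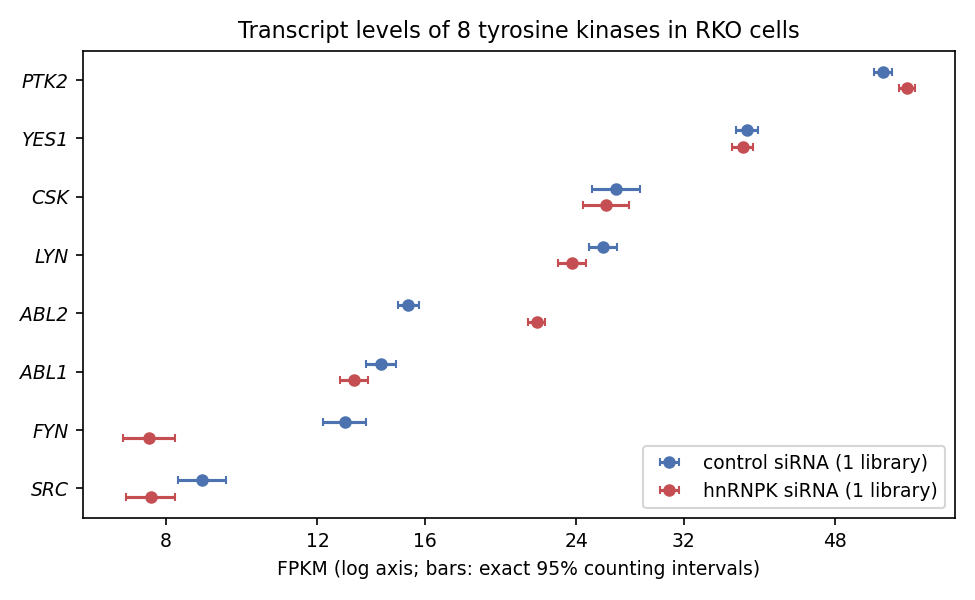
FPKM on a log axis of the 8 detected kinases in the control library (blue) and the knockdown library (red), 1 library each, with exact 95% counting intervals; LCK, listed at 0, is not drawn. The widest gaps between the libraries are those of FYN, at 12.9 against 7.65 FPKM, and ABL2, at 15.3 against 21.6 FPKM.

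Ratios between kinases inside a library were compared for all 28 pairs of the 8 detected kinases. The counting interval of the change between libraries excluded 1 for 19 pairs, with no adjustment for the number of pairs. All 7 pairs with FYN were among them, with the FPKM of FYN relative to its partner at 0.420 to 0.679 times the value in the control library. All 7 pairs with ABL2 were too, with ABL2 at 1.32 to 2.38 times. As FYN had the lowest and ABL2 the highest ratio of the 8, the direction in their pairs was fixed in advance. The 28 pairs restate the same 8 ratios and add no separate support. Pairs of other genes were not computed, so no share over all genes stands beside the 19. Of the 15 pairs among the other 6 kinases, 9 had an interval that included 1. The other 6 pairs comprised 4 in which PTK2 was the relatively higher gene, over SRC, YES1, LYN and ABL1, and YES1 over SRC and over LYN. The largest of these was PTK2 over SRC, 1.22-fold (1.11 to 1.35).

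Among other tyrosine kinases with a mean FPKM of at least 1, 29 in all, those closest to SRC in log2(FPKM + 1) over the 2 libraries were SYK, FGFR1 and LMTK2. SYK, a cytoplasmic kinase of immune receptor signalling, was at 9.84 and 7.30 FPKM, a distance of 0.16. FGFR1, a fibroblast growth factor receptor, was at 11.4 and 8.47 FPKM, a distance of 0.36. LMTK2 was at 5.84 and 5.54 FPKM, a distance of 0.66. Closest to FYN were FGFR1 at 0.21, SYK at 0.36 and PTK7, a receptor-like protein of Wnt signalling, at 14.6 and 13.5 FPKM, at 0.76. With 2 libraries such closeness mostly reflects a similar level.

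Transcripts of proteins that set SRC activity had values in the knockdown library on both sides of those in the control library. Of 19 listed regulators 12 had a mean FPKM of at least 1, with a median log2 ratio of −0.11 against −0.15 for all genes. None was past 2-fold, and of the 12, 1 was at least 1.5-fold lower and 1 at least 1.5-fold higher, against 14.7% and 3.67% of all genes. The lower was CBLB, a ubiquitin ligase that targets activated tyrosine kinases, at 20.04 FPKM in the control library and 12.6 FPKM in the knockdown library (ratio 0.627, 0.597 to 0.659). The higher was PTPN2, a tyrosine phosphatase, at 17.1 and 26.8 FPKM (1.57, 1.48 to 1.68). CBLB was no longer past 1.5-fold when centred, scaled by TMM factors or given a pseudocount of 5 FPKM. Nor was PTPN2 with equal FPKM sums or that pseudocount. The phosphatase PTPN1, which can remove the inhibitory phosphate of SRC, was the most abundant at 65.1 and 53.8 FPKM. PAG1, the membrane adaptor that recruits CSK, was near 0, at 0.0615 and 0.101 FPKM from 17 and 31 reads.

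Among 17 of 19 SRC substrates with a mean FPKM of at least 1, 2-fold was passed by 1 on the higher and 1 on the lower side, against 0.777% and 3.55% of all genes. The higher was CAV1, the coat protein of caveolae, at 2.08 FPKM from 171 reads in the control library and 5.97 FPKM from 546 reads in the knockdown library, 2.88-fold higher (2.42 to 3.44). The lower was ARHGAP35, also called p190RhoGAP, at 12.2 and 5.31 FPKM, 2.30-fold lower (2.15 to 2.46). CTTN, the actin regulator cortactin, was at 108.8 and 101.3 FPKM, and ANXA2, the most abundant of the list, at 283 and 294 FPKM. The list median was −0.14, close to that of all genes.

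Of 31 focal adhesion partners of PTK2, 25 had a mean FPKM of at least 1. On the FPKM + 1 scale 2 of these were at least 2-fold lower and none higher, against 3.55% and 0.777% of all genes. ASAP1, an Arf GTPase activator that binds PTK2 and SRC, was at 22.4 and 9.79 FPKM, 2.29-fold lower (2.16 to 2.43). DOCK1, an exchange factor that activates Rac downstream of the adaptors BCAR1 and CRK, was at 15.0 and 6.52 FPKM, 2.30-fold lower (2.15 to 2.46). TLN2, not past 2-fold on the FPKM + 1 scale, was 2.47-fold lower by FPKM alone (2.01 to 3.06). It was at the low levels of 1.83 and 0.740 FPKM and was named after its values were seen. The scaffold PXN was at 20.5 and 21.5 FPKM, and the integrin subunit ITGB1, the most abundant, at 1191 and 1289 FPKM. The list median was −0.17, with 17 below the median of all genes and 8 above it.

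Of 22 partners of the ABL kinases, 15 had a mean FPKM of at least 1, and none was past 1.5-fold in either direction (median −0.17), where 14.7% of all genes were lower and 3.67% higher. BRK1, a subunit of the actin-nucleating WAVE complex, had the highest ratio, 1.23 (1.16 to 1.31), and BCR, the fusion partner of ABL1 in chronic myeloid leukaemia, the lowest, 0.617 (0.559 to 0.681). With 1 FPKM added BCR was not past 1.5-fold. NCKAP1, also of the WAVE complex, was the most abundant at 75.3 and 62.0 FPKM. ABI1, an adaptor that binds ABL kinases, was at 18.1 and 21.0 FPKM.

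The other cytoplasmic tyrosine kinases included 8 of 17 with a mean FPKM of at least 1, none past 1.5-fold on the FPKM + 1 scale (median −0.11), against the same shares of all genes. Their lowest ratio was that of TYK2, a Janus kinase, at 0.640 (0.537 to 0.763), and JAK1 was the most abundant at 31.5 and 26.7 FPKM. TNK1 had the highest ratio, 1.08, from 118 and 142 reads. Of 58 receptor tyrosine kinases 21 had a mean FPKM of at least 1, with 15 below the median of all genes and 6 above it (median −0.25). That median was −0.087 when a mean FPKM of 5 was required or no filter was used, −0.12 with a pseudocount of 5 FPKM, −0.11 centred, −0.075 by TMM factors, −0.36 with equal FPKM sums and −0.35 when 0.1 FPKM was added. On the FPKM + 1 scale 2 of the 21 were at least 2-fold lower, against 3.55% of all genes. They were EPHB2, an ephrin receptor, at 6.27 and 2.09 FPKM, and TYRO3, a receptor of the TAM family, at 6.26 and 2.36 FPKM. AXL, of the same family, at 37.3 and 18.8 FPKM, and EGFR, at 3.94 and 1.66 FPKM, completed the 4 of 21 at least 1.5-fold lower on that scale. The share of all genes was 14.7%. None of the 21 was at least 1.5-fold higher, against 3.67%. By FPKM alone EGFR was 2.37-fold lower (2.02 to 2.78). Below a mean FPKM of 1, DDR2 was higher, at 0.181 and 1.40 FPKM from 43 and 367 reads (ratio 7.69, 5.60 to 10.8). MST1R, also below that mean, was lower, at 1.34 and 0.587 FPKM. AXL, EGFR, DDR2 and MST1R were named after their values were seen. RYK, a Wnt receptor with the highest mean FPKM of the 21, was at 31.8 and 32.2 FPKM.

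**Figure D5:**
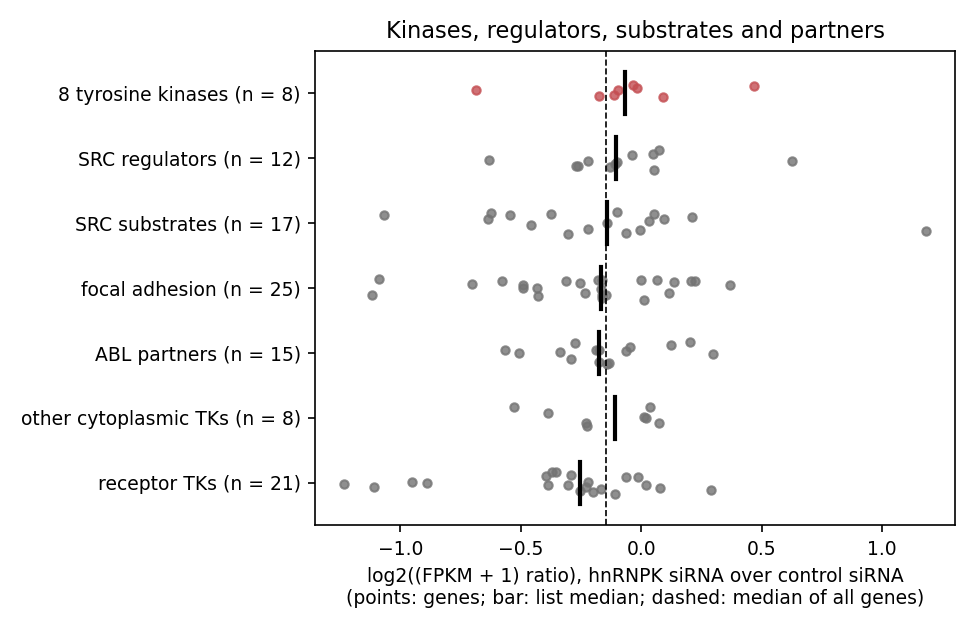
Log2((FPKM + 1) ratio) of the knockdown over the control library for each gene with a mean FPKM of at least 1 in the kinases (red) and 6 lists of regulators, substrates, partners and other tyrosine kinases (grey, TK for tyrosine kinase); bars are list medians and the dashed line is the median of all genes. The list medians lie between −0.25 and −0.07, and the points past 2-fold are CAV1 on the higher side and EPHB2, ASAP1, TYRO3, DOCK1 and ARHGAP35 on the lower side.

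On the FPKM + 1 scale EPHB2 and CAV1 were still past 2-fold once centred or scaled by TMM factors, and ASAP1, TYRO3, DOCK1 and ARHGAP35 were not. By FPKM alone these 4 were, with ratios of 0.418 to 0.483 centred and 0.427 to 0.494 by TMM factors. With a pseudocount of 5 FPKM none of the 6 was.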

How the data were processed

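RNA sequencing of RKO cells gave 2 libraries, 1 for control siRNA and 1 for hnRNPK siRNA. The authors deposited 1 table of FPKM values, with no column left unmapped. The column of the hnRNPK library was identified from SiK in its heading, less directly than the control. The submitters' processing notes name Bowtie 0.12.2 and the build hg19. How reads were counted, on which annotation and whether by strand, is not given in the sources used here.

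Reads and lengths were recovered as the smallest whole numbers that fit both columns (tolerance 5e-14 for a ratio, 1e-05 bases for a length), which succeeded for 99.9% of 19069 genes above 0. They served for exact Clopper-Pearson and conditional odds ratio intervals at 95%. Copied reads would make them too narrow. The procedure was tested on simulated data. No count model was fitted. Log2 ratios used FPKM + 1, which understates changes of low genes, and ratios of named genes FPKM alone. Genes of like level are those with a mean FPKM within 1.5-fold.

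The members, gene lists and rules were chosen with earlier results of these data known. Named genes were all members and, from each list, up to 4 genes past 2-fold or else the highest and lowest ratio. The most abundant gene of each list was also named. PAG1, PTK2B, PTK6, FRK, CTTN, PXN, TLN2, ABI1, AXL, EGFR, DDR2 and MST1R were added after their values were seen. Alternatives were pseudocounts of 0.1 and 5 FPKM, centring, TMM factors from the recovered reads, filters, and equal FPKM sums, which was added later. Python 3.11.15 and scipy 1.17.1 were used.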

Additional observations from a re-analysis of the deposited data

How the results depend on the processing

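No paired analysis was possible because each group has 1 library. The 1 gene at least 1.5-fold lower among the 9 became 0 once centred, scaled by TMM factors or given a pseudocount of 5 FPKM, and the 0 at least 1.5-fold higher became 1 after centring or with TMM factors. No alternative put any of the 9 past 2-fold. Over all genes the 407 at least 2-fold lower and 89 higher changed as follows: a pseudocount of 0.1 FPKM gave 754 and 162, one of 5 FPKM 85 and 24, centring 241 and 142, TMM factors 214 and 160, and a minimum mean FPKM of 5 gave 258 and 50, and equal FPKM sums 585 and 65. On the FPKM + 1 scale the log2 ratio of LYN turned to 0.031 once centred and to 0.063 by TMM factors, and that of ABL1 to 0.049 and 0.081. YES1 turned to 0.13 and 0.16, and CSK to 0.11 and 0.14. SRC turned to 0.0017 with TMM factors and PTK2 to −0.019 with equal FPKM sums, an alternative added after the data had been seen. Median log2 ratios of lists that turned after centring were SRC regulators at 0.041, SRC substrates at 0.0033 and other cytoplasmic tyrosine kinases at 0.038. With TMM factors these were 0.072, 0.035 and 0.070, and the focal adhesion and ABL partner lists also turned, to 0.011 and 0.0041. The other cytoplasmic tyrosine kinases turned to 0.011 with no filter. The constant subtracted from the log2 ratio of every gene was −0.15 for centring, −0.18 for TMM factors and 0.11 for equal sums. Centring and TMM factors thus raised every log2 ratio, and equal sums lowered it. FYN stayed below 0 and ABL2 above 0 under every alternative run. With 1 library per group, depth limits counting error only.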
